A study of Mus musculus with 30 samples.

Results

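Rab GTPases are the small GTP-binding proteins that give each intracellular membrane its identity and direct the vesicles moving between them. Their messenger RNAs were measured by RNA-seq in mouse bone marrow-derived macrophages (BMDMs), macrophages grown from bone marrow in culture. A gene was taken as a Rab when its symbol was Rab followed by a number and at most 1 letter and its counts over the 30 libraries summed to at least 100. Of 30538 genes in the table, 58 had such a symbol and 53 reached 100 counts. Rab9b, Rab17, Rab3c, Rab27b and Rab25 fell short, with 0, 2, 7, 13 and 63 counts, and Rab26 was the 1 member too low for the tests, which left 52. Rab1a is listed in the table as Rab1.

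The libraries came from polyA RNA and fall into 10 groups of 3 mice. Wild-type C57BL/6 cells received 5 uM of 25-hydroxycholesterol (25HC), 1 uM of the antifungal itraconazole, 0.3 uM of the plant saponin OSW-1, each for 18 h, or no compound, and each of these 4 was then either given lipopolysaccharide (LPS, 10 ng/mL, 18 h) or left unstimulated. Cells of Ch25h-/- mice, which lack the enzyme that makes 25HC from cholesterol, received no compound and were studied with and without LPS. The series presents the 3 compounds as inhibitors of oxysterol-binding protein (OSBP), so the comparisons ask how macrophages respond to OSBP ligands, alone and before LPS. The compounds were given at different doses. The sample labels carry a time of 18 h with LPS and of 0 h without. Whether unstimulated cells were kept in culture as long as those with LPS is not given. Nor is it given whether the compounds stayed on during LPS. A difference in time, if there was one, cannot be told apart from LPS. No vehicle is named for the untreated cells, and the labels give neither the sex nor the age of the mice. The mouse number is the same across groups of a genotype, so a mouse contributed a library to several groups.

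As background, a Rab is delivered to membranes by an escort protein and a geranylgeranyl transferase, switched on by an exchange factor, recruits effectors while bound to GTP, and is switched off by a GTPase-activating protein and drawn from the membrane again. Rab1, Rab2 and Rab6 work between the endoplasmic reticulum (ER) and the Golgi, Rab5 on early endosomes and phagosomes, Rab4 and Rab11 in recycling, Rab7 on late endosomes and lysosomes, and Rab27 and Rab32 in secretory and lysosome-related organelles. In macrophages these steps carry phagosomes to lysosomes and cytokines to the surface. OSBP moves cholesterol from the ER to the Golgi in exchange for a phosphoinositide, and LPS activates macrophages through Toll-like receptor 4.

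Libraries held 23656860 to 43922154 counts, and Rab genes made up 0.456 to 0.529% of them. Every count was even in 20 libraries, while the 3 of OSW-1 with LPS, the 6 of Ch25h-/- cells and 1 of 25HC without LPS (mouse 3) held 46.13 to 51.38% odd counts. Comparisons of OSW-1 plus LPS with untreated, 25HC or itraconazole cells with LPS cross this split, so treatment cannot be told apart from it. The effect of OSW-1 with LPS minus that without crosses it too. Comparisons of the genotypes also cross it, so that genotype cannot be told apart from it. Untreated LPS mouse 3 stood apart from its group, and some results that rest on it are given with and without it. Ch25h itself had 0 to 7 counts in the Ch25h-/- libraries and 32 to 94 in untreated wild-type libraries. Markers of macrophages summed to 9881 to 12640 CPM (counts scaled to library depth) with OSW-1 and LPS, against 24816 to 36148 CPM in untreated cells with LPS, and all 8 markers were detected. With 25HC and LPS the sums were 17968 to 23450 CPM, also below every untreated library with LPS, and with itraconazole and LPS 19476 to 32407 CPM, which overlapped them. Single markers did not move alike. Lyz2 averaged 1850 CPM with OSW-1 and LPS, against 15308 CPM in untreated cells with LPS. Cd14 averaged 4884 CPM, against 908 CPM. The part of these differences in the Rab results was not tested. Those of the 8 other cell types looked for, including T cells, neutrophils and dendritic cells, stayed under 2 CPM, apart from fibroblast markers, which reached 10.6 CPM in Ch25h-/- cells with LPS. In bulk RNA, fewer cells of a type and less RNA per cell cannot be told apart.

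Rab5c and Rab7 were the most abundant Rab messages per length in every group. In RPKM, counts scaled to depth and exon length, Rab5c averaged 322 ± 32.1 in untreated wild-type cells with LPS, against 203 ± 13.5 without (SD, n = 3 each). Rab7, the late endosome Rab, averaged 188 ± 8.92 with LPS and 173 ± 8.84 without. Next in unstimulated cells came Rab8b, Rab31, Rab1b and Rab1, at 108 ± 0.704, 102 ± 3.86, 98.4 ± 4.51 and 98.0 ± 10.2 RPKM, of which the last 3 lie within their SDs of each other. With OSW-1 and LPS, Rab5c at 152 ± 7.63 and Rab7 at 150.1 ± 1.63 RPKM lay within their spread of each other, and Rab2a, at 103 ± 1.88 RPKM, was among the first 5, where Rab8b stood in untreated cells with LPS. The 5 most abundant members held 43.3 to 48.3% of the summed Rab RPKM, depending on the group.

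A member was called when its adjusted p, from edgeR's quasi-likelihood test with Benjamini-Hochberg adjustment over all 13173 tested genes, was under 0.05. Differences are log2 fold changes ± SE, and levels are CPM in mice 1, 2 and 3 in that order. In unstimulated cells 25HC raised 7 members and lowered 13 of 52, while over all genes 15.9% rose and 12.8% fell. Itraconazole raised 3 and lowered 14, against 14.4% and 12.4% of all genes, and OSW-1 raised 8 and lowered 19, against 20.1% and 17.2%. With LPS, 25HC raised 8 and lowered 14 (all genes, 20.8% and 21%), itraconazole 14 and 21 (26.5% and 27.9%), and OSW-1 13 and 26 (34.3% and 37.1%). The share of Rab members that fell lay above that of all genes in each comparison. The share that rose lay below that of all genes in each but itraconazole with LPS, where it was close to it. The members' median log2 fold changes were -0.19, -0.18 and -0.25 without LPS, for 25HC, itraconazole and OSW-1. With LPS they were -0.02, -0.20 and -0.27 in that order. Medians of all genes lay between -0.06 and 0.01, and at -0.01 for 25HC with LPS. The genes compared were not matched to the members for abundance. The 3 comparisons without LPS share their untreated libraries, as do the 3 with LPS. Without itraconazole mouse 1 or mouse 2, 10 members were called for unstimulated itraconazole in place of 17. Without 25HC mouse 3, the library with odd counts, 21 were called for unstimulated 25HC in place of 20. Rab6b and Rab4b, close relatives of Rab6a and Rab4a, were called in none of these 6 comparisons, nor were Rab3b and Rab40c. Other annotated genes, Gm21983 and Mir3101, share 69.4% of the exon length of Rab4b on the same strand, so its counts are uncertain.

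**Figure D1:**
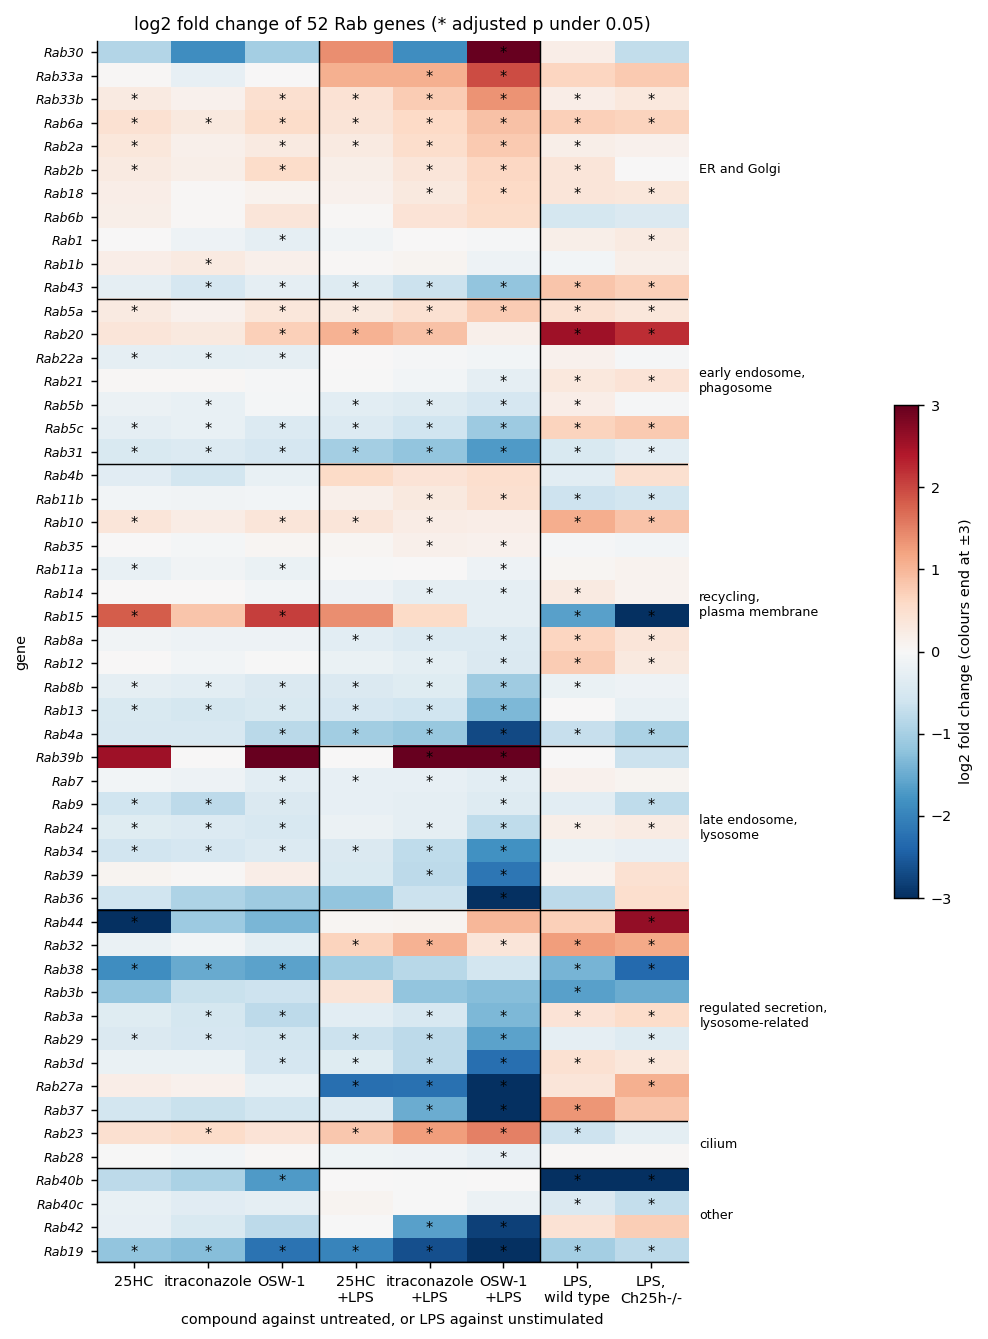
Log2 fold change of the 52 tested Rab genes (rows, grouped by the membrane they serve) in 8 comparisons (columns), with red for higher and blue for lower in the group named, colours ending at ±3, and asterisks at an adjusted p under 0.05. Values against groups with 0 reads (Rab39b, Rab40b and Rab44) depend on the fit's prior count. Rows such as Rab6a, Rab2a and Rab33b are red, and Rab31, Rab29 and Rab19 blue, in the 6 compound columns, most deeply with OSW-1 and LPS.

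Among the 11 tested members of the ER and Golgi, Rab6a, Rab2a and Rab33b were higher with each compound in LPS-stimulated cells, and more so with OSW-1 than with 25HC or itraconazole at the doses given, which differ. With LPS, 3 of the 11 rose and 1 fell with 25HC, 6 rose and 1 fell with itraconazole, and 7 rose and 1 fell with OSW-1. Of all genes, 20.8% rose and 21% fell with 25HC, 26.5% and 27.9% with itraconazole, and 34.3% and 37.1% with OSW-1. The median log2 fold changes of the 11 members were 0.18, 0.36 and 0.62, against -0.01, -0.03 and -0.06 over all genes. Without LPS, 4 rose with 25HC, 2 rose and 1 fell with itraconazole, and 4 rose and 2 fell with OSW-1. The shares of all genes were then 15.9% and 12.8% with 25HC, 14.4% and 12.4% with itraconazole, and 20.1% and 17.2% with OSW-1.

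Rab6a, which runs retrograde and post-Golgi traffic, had 171, 174 and 167 CPM with 25HC and LPS, 203, 196 and 195 with itraconazole and LPS, and 256, 236 and 227 with OSW-1 and LPS, against 142, 129 and 123 in untreated cells with LPS. All 9 compound libraries lay above the 3 untreated ones. The log2 fold changes were 0.38 ± 0.08 (adjusted p = 0.000576), 0.59 ± 0.08 (adjusted p = 1.55e-06) and 0.87 ± 0.08 (adjusted p = 7.9e-10) for 25HC, itraconazole and OSW-1. Without LPS it had 116, 114 and 102 CPM with 25HC, 99.6, 99.5 and 96.3 with itraconazole and 129, 117 and 105 with OSW-1, against 83.4, 85.2 and 72.2 in untreated cells. Again no compound library fell within the untreated range, with log2 fold changes of 0.46 ± 0.08 (adjusted p = 0.000143), 0.29 ± 0.08 (adjusted p = 0.00863) and 0.54 ± 0.08 (adjusted p = 1.11e-05). The call for itraconazole was lost without untreated mouse 3, at 0.22 (adjusted p = 0.0749). Exons of Mrpl48 on the opposite strand cover 19.0% of those of Rab6a, and the counting's strand setting is not given in the sources used here. Mrpl48 had a log2 fold change of 0.40 (adjusted p = 0.00106) for OSW-1 with LPS and of -0.01 and -0.06 for 25HC and itraconazole with LPS, neither of them called.

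Rab33b, a Golgi Rab that also binds the autophagy protein Atg16l1, had 58.4, 55.5 and 55.2 CPM with OSW-1 and LPS, 36.2, 37.7 and 38.7 with itraconazole and LPS and 27.9, 30.3 and 30.8 with 25HC and LPS, against 21.7, 20.6 and 23.8 in untreated cells with LPS. The 4 groups did not overlap. Its log2 fold changes were 0.43 ± 0.08 (adjusted p = 0.000242) for 25HC, 0.77 ± 0.08 (adjusted p = 5.43e-08) for itraconazole and 1.35 ± 0.08 (adjusted p = 4.97e-13) for OSW-1, and OSW-1 exceeded itraconazole by 0.59 ± 0.08 (adjusted p = 2.48e-06) and 25HC by 0.93 ± 0.08 (adjusted p = 1.17e-09). Rab2a, needed for ER-to-Golgi traffic and for late endosome fusion, had 156, 155 and 152 CPM with 25HC, 183, 191 and 177 with itraconazole and 224, 217 and 218 with OSW-1, against 138, 123 and 124 in untreated cells, all with LPS. These groups were also apart from each other, with log2 fold changes of 0.27 ± 0.06 (adjusted p = 0.00106), 0.52 ± 0.06 (adjusted p = 1.65e-07) and 0.78 ± 0.06 (adjusted p = 3.14e-11). For Rab2a, OSW-1 exceeded 25HC by 0.51 ± 0.06 (adjusted p = 1.11e-07) and itraconazole by 0.26 ± 0.06 (adjusted p = 0.00102). For Rab6a the same differences were 0.49 ± 0.08 (adjusted p = 1.45e-05) and 0.28 ± 0.08 (adjusted p = 0.00673). Of the exons of Rab33b, 18.7% lie opposite those of Gm38160, which was not analysed here.

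Rab18, a Rab of the ER and lipid droplets, rose with itraconazole and with OSW-1 in LPS-stimulated cells, by 0.30 ± 0.08 (adjusted p = 0.00428) and 0.59 ± 0.08 (adjusted p = 7e-07). Rab2b, the close relative of Rab2a, rose in the same pair by 0.36 ± 0.09 (adjusted p = 0.00193) and 0.62 ± 0.09 (adjusted p = 1.77e-06), but 64.0% of its exons lie opposite other genes, chiefly Tox4, which itself rose by 0.33 (adjusted p = 0.000704) with OSW-1. Rab33a was low, at 1.20, 2.47 and 2.99 CPM with OSW-1 and LPS, against 0.922, 0.54 and 0.243 in untreated cells with LPS, a log2 fold change of 1.97 ± 0.44 (adjusted p = 0.000331). Rab30, a Golgi Rab, had 0.883, 1.01 and 0.688 CPM with OSW-1 and LPS, against 0.0615, 0.06 and 0.122 in untreated cells with LPS, 3.35 ± 0.74 (adjusted p = 0.000275). Rab1 and Rab1b, which start ER-to-Golgi transport, were not called for any compound with LPS. The log2 fold changes lay at -0.10, 0.00 and -0.05 for Rab1 and 0.04, 0.08 and -0.15 for Rab1b with 25HC, itraconazole and OSW-1. Rab43, a Rab of the medial Golgi, went the other way, with 90.5, 96.4 and 95.0 CPM with OSW-1 and LPS, 153, 124 and 133 with itraconazole and LPS and 183, 154 and 151 with 25HC and LPS, against 202, 202 and 237 in untreated cells with LPS. It fell by 1.18 with OSW-1 (adjusted p = 2.45e-10), 0.64 with itraconazole (adjusted p = 1.28e-05) and 0.39 with 25HC (adjusted p = 0.00357) on the log2 scale. Another annotated gene, Gm45140, shares 75.4% of the exon length of Rab43 on the same strand, so its counts are uncertain.

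**Figure D2:**
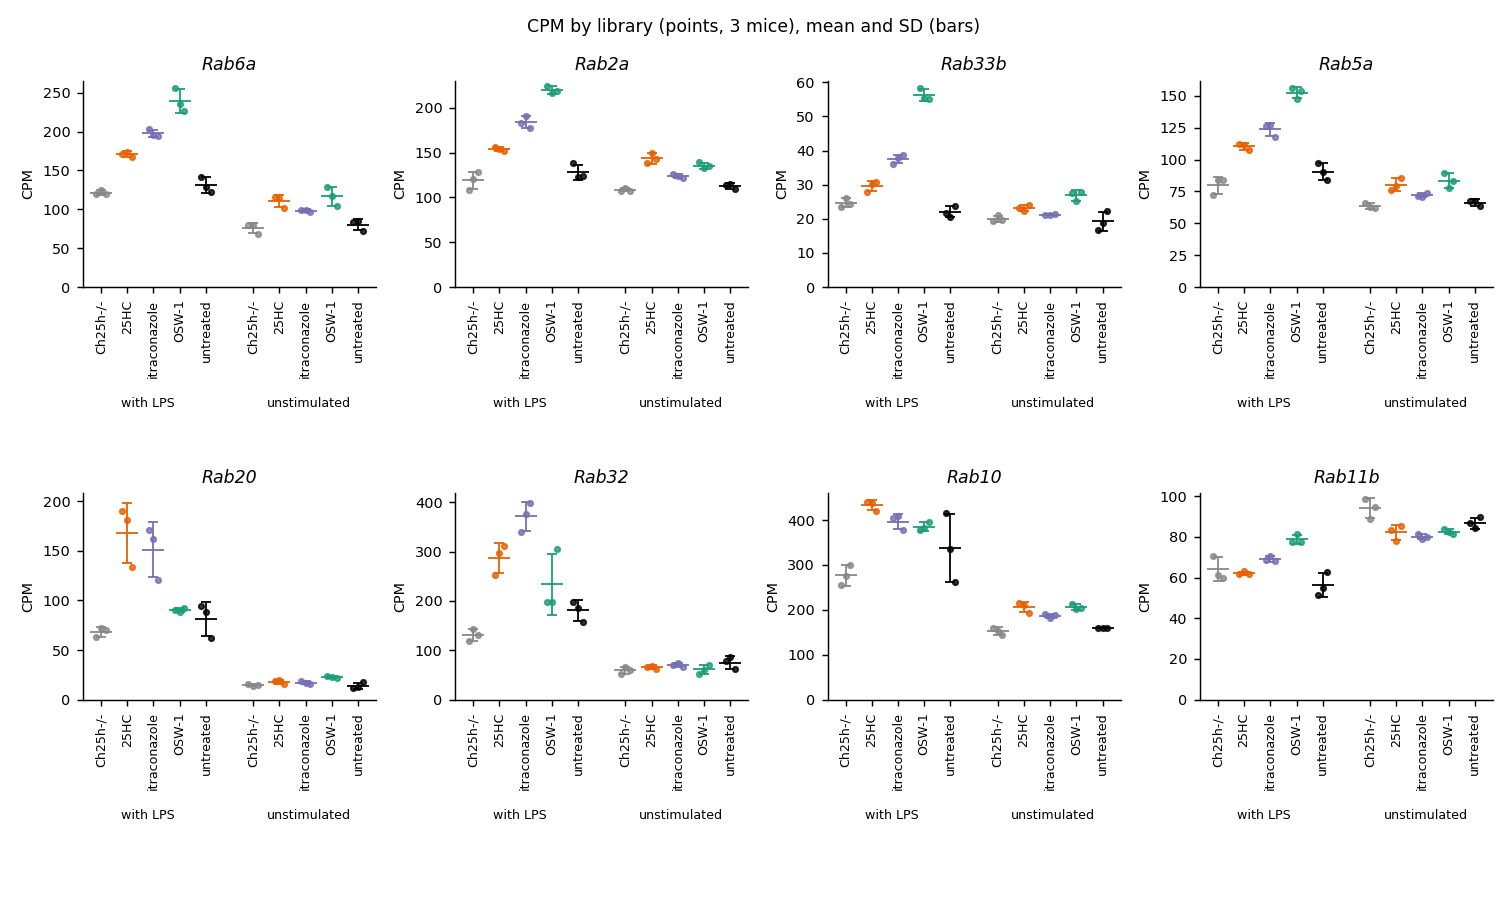
CPM of 8 Rab genes in each of the 30 libraries (points), with group means (horizontal bars) and SDs (error bars, n = 3), LPS-stimulated groups on the left of each panel and unstimulated groups on the right. Rab6a, Rab2a, Rab33b and Rab5a step up through 25HC, itraconazole and OSW-1 with LPS, while Rab20 and Rab32 are highest with 25HC or itraconazole and LPS.

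The 3 Rab5 genes, which share the work of early endosome fusion and phagosome maturation, split: Rab5a rose while Rab5b and Rab5c fell with every compound in LPS-stimulated cells. Rab5a had 112, 112 and 107 CPM with 25HC and LPS, 126, 127 and 118 with itraconazole and LPS, and 156, 148 and 154 with OSW-1 and LPS, against 97.7, 90.1 and 84.0 in untreated cells with LPS. Every compound library exceeded the untreated ones, and the log2 fold changes were 0.29 ± 0.07 (adjusted p = 0.00199), 0.45 ± 0.07 (adjusted p = 8.48e-06) and 0.75 ± 0.07 (adjusted p = 6.81e-10). Rab5c had 568, 510.2 and 527 CPM with 25HC and LPS, 455, 457 and 497 with itraconazole and LPS and 318, 329 and 351 with OSW-1 and LPS, against 787, 659.7 and 671 in untreated cells with LPS. Here every compound library lay below the untreated ones, with log2 fold changes of -0.40 ± 0.08 (adjusted p = 0.000273), -0.59 ± 0.08 (adjusted p = 1.16e-06) and -1.08 ± 0.08 (adjusted p = 9.12e-12). Rab5b moved the same way as Rab5c by less, with -0.33 ± 0.08 (adjusted p = 0.00133), -0.38 ± 0.08 (adjusted p = 0.000178) and -0.50 ± 0.08 (adjusted p = 2.29e-06). In unstimulated cells Rab5a rose by 0.28 ± 0.07 with 25HC (adjusted p = 0.00387) and 0.34 ± 0.07 with OSW-1 (adjusted p = 0.00051), and itraconazole gave 0.12 (adjusted p = 0.212). Rab5c changed by -0.42 ± 0.08 (adjusted p = 0.000153) with OSW-1 and -0.27 ± 0.08 (adjusted p = 0.0114) with 25HC, the second of which was lost without untreated mouse 2, at -0.23 (adjusted p = 0.0527). LPS by itself raised both, Rab5a by 0.45 ± 0.07 and Rab5c by 0.66 ± 0.08 in wild-type cells (adjusted p = 4.76e-06 and 7.92e-08). It also raised Rab5b there, by 0.20 ± 0.08 (adjusted p = 0.0233).

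**Figure D3:**
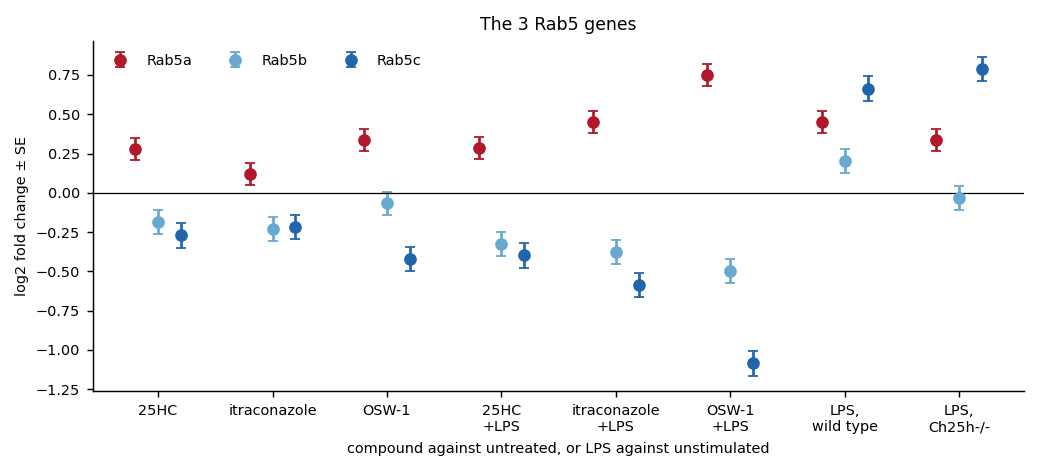
Log2 fold change ± SE of Rab5a (red), Rab5b (light blue) and Rab5c (dark blue) in the 6 compound comparisons and the 2 LPS comparisons. With each compound and LPS, Rab5a lies above 0 and Rab5b and Rab5c below it. LPS alone puts Rab5a and Rab5c above 0, and in wild-type cells Rab5b too.

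The promoters of the 3 Rab5 genes, of Rab6a and of Rab19, which fell with every compound, are shown because the Rab5 genes part and the other 2 moved in all 6 compound comparisons. Each is the 250 bases before and 50 after the annotated start from RefSeq (build GRCm38.p6), written in the gene's direction, with matches to the motifs named after them in capitals.
Rab5a, chr17:53478984-53479283 (+ strand): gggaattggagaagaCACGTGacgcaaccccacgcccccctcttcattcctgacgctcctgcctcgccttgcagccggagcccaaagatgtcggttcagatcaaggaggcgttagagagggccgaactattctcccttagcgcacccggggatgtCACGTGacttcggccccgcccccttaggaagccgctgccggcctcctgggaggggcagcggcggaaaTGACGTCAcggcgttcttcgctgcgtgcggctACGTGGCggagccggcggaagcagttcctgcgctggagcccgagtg
Rab5b, chr10:128696219-128696518 (- strand): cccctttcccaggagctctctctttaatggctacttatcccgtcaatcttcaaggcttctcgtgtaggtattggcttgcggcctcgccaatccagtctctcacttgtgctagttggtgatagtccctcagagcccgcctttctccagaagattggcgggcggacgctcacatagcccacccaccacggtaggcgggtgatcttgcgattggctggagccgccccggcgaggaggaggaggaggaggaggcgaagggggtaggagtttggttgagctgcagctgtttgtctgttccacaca
Rab5c, chr11:100738166-100738465 (- strand): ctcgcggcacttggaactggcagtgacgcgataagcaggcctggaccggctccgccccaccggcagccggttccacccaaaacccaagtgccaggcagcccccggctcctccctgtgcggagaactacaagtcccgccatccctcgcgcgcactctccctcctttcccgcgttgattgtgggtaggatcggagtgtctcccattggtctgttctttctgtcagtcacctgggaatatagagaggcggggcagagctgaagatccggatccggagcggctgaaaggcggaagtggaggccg
Rab6a, chr7:100607336-100607635 (+ strand): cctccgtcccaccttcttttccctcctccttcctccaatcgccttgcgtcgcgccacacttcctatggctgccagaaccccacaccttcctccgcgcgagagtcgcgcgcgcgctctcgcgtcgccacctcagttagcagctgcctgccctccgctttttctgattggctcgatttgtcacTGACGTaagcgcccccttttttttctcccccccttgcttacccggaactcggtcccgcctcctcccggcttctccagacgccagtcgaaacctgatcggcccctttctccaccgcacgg
Rab19, chr6:39381103-39381402 (+ strand): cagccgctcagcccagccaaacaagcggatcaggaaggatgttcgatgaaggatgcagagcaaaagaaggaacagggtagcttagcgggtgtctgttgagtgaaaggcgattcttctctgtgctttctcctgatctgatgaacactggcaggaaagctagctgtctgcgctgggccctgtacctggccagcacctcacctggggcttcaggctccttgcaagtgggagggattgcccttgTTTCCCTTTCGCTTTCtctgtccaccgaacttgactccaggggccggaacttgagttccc
The motifs searched on both strands were the core of the cyclic AMP response element (CRE, TGACGT), the unfolded protein response element (TGACGTGG, which contains the CRE core), the Golgi stress element (ACGTGGC), the E-box of the lysosomal CLEAR element (CACGTG), the interferon-stimulated response element, the AP-1 site (TGANTCA) and the NF-kappaB site. The Rab5a promoter held 2 CRE cores, which overlap on opposite strands, 1 Golgi stress element and 2 E-boxes, that of Rab6a 1 CRE core, and that of Rab19 2 overlapping interferon elements, while those of Rab5b and Rab5c held none of the 7 motifs. Of 55 promoters found for 43 members, 10.9% held a CRE core, against 7.51% of all 32851 mouse promoters in the table. For the Golgi stress element the shares were 5.45% and 2.58%, for the E-box 10.9% and 7.15%, for the interferon element 1.82% and 3.44%, for AP-1 5.45% and 7.81%, for NF-kappaB 1.82% and 4.59% and for the unfolded protein response element 0% and 0.676%. The other members with a Golgi stress element were Rab24 and Rab29, which fell with OSW-1 and LPS. A CRE core was also found for Rab11b, which rose with OSW-1 and LPS, and for Rab21, Rab39 and Rab3a, which fell. E-boxes were also found for Rab23, which rose, Rab20, which was not called, and Rab21, Rab24 and Rab27a, which fell. G and C made up 61.8% of the bases for the members and 53.8% for all promoters. The part of this difference in the shares was not tested. A match says only that these letters are in the window.

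Of the other endosomal and phagosomal members, Rab20 rose and Rab31 fell. Rab20, a Rab of maturing phagosomes, had 189.9, 181 and 133 CPM with 25HC and LPS, 172, 162 and 120.3 with itraconazole and LPS and 90.2, 88.3 and 92.6 with OSW-1 and LPS, against 94.2, 88.6 and 62.3 in untreated cells with LPS. The libraries of 25HC and itraconazole lay above all untreated ones, by 1.04 ± 0.15 (adjusted p = 1.09e-05) and 0.89 ± 0.15 (adjusted p = 3.31e-05), while those of OSW-1 fell within the untreated range, at 0.15 ± 0.15 (adjusted p = 0.402). OSW-1 was lower than 25HC by 0.90 and than itraconazole by 0.74 on the log2 scale (adjusted p = 2.04e-05 and 0.000291). In unstimulated cells OSW-1 raised it by 0.71 ± 0.16 (adjusted p = 0.00103), to 23.7, 23.2 and 21.7 CPM, against 11.8, 12.8 and 17.3 in untreated cells. Exons of E230013L22Rik lie opposite 25.6% of those of Rab20, at a mean of 44.2 counts for that gene. Rab31, which sorts cargo from the trans-Golgi to endosomes, had 80.8, 88.1 and 96.6 CPM with OSW-1 and LPS, 105, 112 and 163 with itraconazole and LPS and 151, 119 and 156 with 25HC and LPS, against 283, 256 and 321 in untreated cells with LPS. No compound library reached the untreated range, and the log2 fold changes were -1.70 ± 0.13 (adjusted p = 1.25e-11), -1.18 ± 0.12 (adjusted p = 3.53e-08) and -1.02 ± 0.12 (adjusted p = 8.82e-07). Without LPS its log2 fold changes were -0.47 ± 0.12 (adjusted p = 0.0057) for 25HC, -0.41 ± 0.12 (adjusted p = 0.0153, or 0.078 without itraconazole mouse 1) for itraconazole and -0.49 ± 0.12 (adjusted p = 0.00254) for OSW-1. Rab22a, of early endosomes, fell with the 3 compounds in unstimulated cells, by 0.28, 0.29 and 0.28 for 25HC, itraconazole and OSW-1 on the log2 scale (adjusted p = 0.0174, 0.0139 and 0.013). Each of these calls was lost when some single libraries were left out, with adjusted p up to 0.103, 0.0562 and 0.0652. With LPS it had 0.02, -0.04 and -0.09 and was not called. Rab21, an endosomal Rab that binds integrins, was called in 1 of the 6, OSW-1 with LPS, at -0.27 ± 0.06 (adjusted p = 0.000437).

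Of the 12 recycling and plasma membrane members, 2 rose and 7 fell with OSW-1 and LPS, 3 rose and 6 fell with itraconazole and LPS, and 1 rose and 4 fell with 25HC and LPS, beside the shares of all genes given above for the same comparisons. Their median log2 fold changes were -0.27, -0.13 and -0.08, against -0.06, -0.03 and -0.01 over all genes. Rab4a, which drives fast recycling from early endosomes, had 0.482, 0.299 and 0.791 CPM with OSW-1 and LPS, 1.74, 1.55 and 1.49 with itraconazole and LPS and 2.29, 1.15 and 1.66 with 25HC and LPS, against 3.93, 3.12 and 3.40 in untreated cells with LPS. All 9 compound libraries were below the untreated ones, with -2.71 ± 0.27 (adjusted p = 2.73e-09), -1.13 ± 0.23 (adjusted p = 0.000249) and -1.04 ± 0.23 (adjusted p = 0.000929). Rab8b, in polarized secretion, fell in all 6 compound comparisons, from -0.28 with 25HC alone (adjusted p = 0.00231) to -1.08 with OSW-1 and LPS (adjusted p = 4.29e-13) as log2 fold changes. Rab13, a Rab of cell junctions and surface transport, was called lower in all 6 as well, most with OSW-1 and LPS at -1.36 ± 0.16 (adjusted p = 3.33e-08). Leaving out single libraries ended its calls for the 3 compounds alone and for 25HC with LPS, with adjusted p up to 0.219, 0.107, 0.15 and 0.105 for 25HC, itraconazole and OSW-1 alone and 25HC with LPS. With OSW-1 and LPS the Rab13 libraries held 8.59, 7.59 and 8.87 CPM, against 26.1, 19.3 and 18.9 in untreated cells with LPS. Rab8a, of exocytosis and lysosome repair, fell with LPS by 0.41 ± 0.09 for itraconazole and 0.40 ± 0.09 for OSW-1 on the log2 scale (adjusted p = 0.000789 and 0.000506). With 25HC and LPS its log2 fold change was -0.32 ± 0.09 (adjusted p = 0.00764), and the groups overlapped.

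Rab10, which brings Toll-like receptor 4 to the surface, was higher with 25HC in both states, at 441, 438 and 420.2 CPM with 25HC and LPS, against 415, 335 and 263 in untreated cells with LPS, and 215, 211 and 194 with 25HC alone, against 159, 160.4 and 159 in untreated cells. The differences were 0.36 ± 0.10 (adjusted p = 0.00527) and 0.37 ± 0.10 (adjusted p = 0.00621). The first of these is against untreated LPS libraries of which mouse 3 was the lowest. Its value without that mouse is not given here. OSW-1 alone gave 213, 202 and 205 CPM and itraconazole alone 190, 182 and 188, also above the untreated libraries. With OSW-1 and LPS it had 378, 381 and 396 CPM, within the untreated range. The untreated LPS libraries were widely spread, with mouse 3 the lowest, and the value for itraconazole with LPS, 0.23 ± 0.10 (adjusted p = 0.0496), came to 0.08 (adjusted p = 0.417) without it. That call was also lost without untreated mouse 2 (adjusted p = 0.098), itraconazole mouse 1 (0.111) or itraconazole mouse 2 (0.128), with DESeq2 (0.0529), and under 4 other settings of edgeR, with adjusted p between 0.0517 and 0.275. Rab11b, of recycling endosomes, rose with itraconazole and OSW-1 in LPS-stimulated cells, by 0.29 ± 0.07 (adjusted p = 0.000873) and 0.49 ± 0.07 (adjusted p = 8.08e-07). Its relative Rab11a had -0.15 ± 0.07 with OSW-1 and LPS (adjusted p = 0.0466), which the fit with mouse as a block put at an adjusted p of 0.0519 and which leaving out single libraries put as high as 0.239. Rab14, between the Golgi and endosomes, fell by 0.27 ± 0.07 and 0.27 ± 0.07 on the log2 scale with itraconazole and OSW-1 and LPS (adjusted p = 0.00125 and 0.000647). Rab12, an endosomal Rab, fell in the same pair by 0.28 and 0.44 (adjusted p = 0.0383 and 0.00131), and Rab35, of fast recycling, rose by 0.15 and 0.13 (adjusted p = 0.0271 and 0.0373). Of these, the calls of Rab35 and that of Rab12 with itraconazole were lost without 1 of several libraries, at adjusted p up to 0.114, 0.172 and 0.254. Rab15, in receptor recycling, was at 5.66, 3.61 and 2.58 CPM with OSW-1 alone, against 1.32, 1.15 and 0.31 in untreated cells, 2.07 ± 0.55 (adjusted p = 0.00436). It had 4.32, 3.26 and 2.39 CPM with 25HC alone and 1.85, 1.68 and 1.47 with itraconazole alone, all above the untreated libraries.

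Among the 7 late endosome and lysosome members, 6 fell and 1 rose with OSW-1 and LPS (all genes, 37.1% and 34.3%), 4 fell and 1 rose with itraconazole and LPS (27.9% and 26.5%). With 25HC and LPS, 2 fell and none rose (21% and 20.8%). Their median log2 fold changes were -0.76, -0.28 and -0.25, against -0.06, -0.03 and -0.01 over all genes. Rab7 itself moved little: it had 387, 392 and 396 CPM with OSW-1 and LPS, 423, 409 and 415 with itraconazole and LPS and 406, 408 and 433 with 25HC and LPS, against 518, 478 and 476 in untreated cells with LPS. Although small, the log2 fold changes of -0.32 ± 0.06 (adjusted p = 4.32e-05), -0.24 ± 0.06 (adjusted p = 0.00193) and -0.24 ± 0.06 (adjusted p = 0.0031) separated all compound libraries from the untreated ones. Rab34, which positions lysosomes, had 6.30, 7.86 and 5.78 CPM with OSW-1 and LPS and 10.7, 14.1 and 16.6 with itraconazole and LPS, against 26.4, 22.3 and 21.7 in untreated cells with LPS. The 2 differences were -1.82 ± 0.15 (adjusted p = 1.33e-10) and -0.76 ± 0.15 (adjusted p = 0.000112). With 25HC and LPS the log2 fold change was -0.44 ± 0.15 (adjusted p = 0.0169). Without LPS it was -0.56 with 25HC and -0.51 with itraconazole (adjusted p = 0.00474 and 0.00948). OSW-1 alone gave 18.7, 19.9 and 22.1 CPM, against 29.1, 23.6 and 28.7 in untreated cells. Rab39, of phagosome acidification and autophagy, had 0.843, 0.86 and 1.58 CPM with OSW-1 and LPS, against 4.86, 4.86 and 5.23 in untreated cells with LPS, -2.17 ± 0.24 (adjusted p = 1.31e-08). Its X-linked relative Rab39b went the other way, with 4.57, 6.06 and 4.40 CPM with OSW-1 and LPS, against 0 in all 3 untreated libraries with LPS. That is 404 reads against 0, or at least 82.4-fold higher, taking 3 reads over the group as the floor. Itraconazole with LPS gave 17 reads, at least 5.49-fold higher, of which mouse 3 had 0, and 25HC with LPS gave 0. Rab36 had 1 read with OSW-1 and LPS against 23 in untreated cells with LPS, a ratio of 37.6 in favour of untreated cells with a 95% counting interval of 6.1 to 1550. Rab24, an autophagy Rab, fell in 5 of the 6 compound comparisons, by 0.76 on the log2 scale with OSW-1 and LPS (adjusted p = 2e-09), and 62.4% of its exons lie opposite Prelid1. Prelid1 itself fell by 0.27 (adjusted p = 0.00568) with OSW-1 and LPS, 0.20 (adjusted p = 0.0486) with itraconazole and LPS, 0.34 (adjusted p = 0.00195) with OSW-1 alone and 0.23 (adjusted p = 0.0398) with itraconazole alone, on the log2 scale. Rab9, of late endosome-to-Golgi return, fell with each compound alone, at -0.60, -0.78 and -0.43 for 25HC, itraconazole and OSW-1 (adjusted p = 0.00694, 0.000816 and 0.0398). The first and last of these were lost without 1 of several libraries, at adjusted p up to 0.0699 and 0.166.

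Rab27a, which docks secretory lysosomes and exosome-bearing endosomes, fell with each compound in LPS-stimulated cells and was not called without LPS. It had 0.361, 0.299 and 0.309 CPM with OSW-1 and LPS, 0.87, 1.15 and 3.09 with itraconazole and LPS and 2.29, 1.15 and 1.66 with 25HC and LPS, against 6.15, 7.56 and 10.5 in untreated cells with LPS. All compound libraries lay below the untreated ones, with log2 fold changes of -4.63 ± 0.39 (adjusted p = 1.16e-10), -2.24 ± 0.30 (adjusted p = 1.44e-06) and -2.25 ± 0.31 (adjusted p = 3.79e-06). The deposited counts of Rab27a in the 3 libraries of 25HC with LPS, 72, 44 and 50, equal those of Rab4a in the same 3 libraries, which happened in all 3 libraries of no other group. Without LPS it had 4.18, 5.91 and 6.16 CPM with OSW-1, 7.50, 6.37 and 6.85 with itraconazole and 7.61, 7.20 and 6.84 with 25HC, against 5.95, 7.71 and 5.26 in untreated cells, groups that overlapped, with adjusted p = 0.563, 0.776 and 0.65. The effect with LPS minus that without was -4.41 ± 0.49 (adjusted p = 7.13e-08) for OSW-1, -2.37 ± 0.41 (adjusted p = 0.000205) for itraconazole and -2.45 ± 0.41 (adjusted p = 0.000505) for 25HC. Rab37, a Rab of secretory granules, had 2 reads with OSW-1 and LPS, against 104 in untreated cells with LPS, a ratio of 85 in favour of untreated cells with a counting interval of 22.9 to 711. With itraconazole and LPS it averaged 0.747 ± 0.102 CPM, against 2.11 ± 0.903 in untreated cells with LPS (SD, n = 3 each), a log2 fold change of -1.49 (adjusted p = 0.00259).

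Rab3d, of regulated exocytosis, had 20.1, 22.7 and 22.5 CPM with OSW-1 and LPS and 56.2, 58.3 and 66.5 with itraconazole and LPS, against 119.5, 104 and 90.6 in untreated cells with LPS, log2 fold changes of -2.26 ± 0.11 (adjusted p = 5.19e-15) and -0.79 ± 0.10 (adjusted p = 5.76e-07). With 25HC and LPS it had 90.6, 75.9 and 78.1 CPM, a log2 fold change of -0.36 ± 0.10 (adjusted p = 0.00591). Rab29, a partner of the kinase Lrrk2 at the Golgi and lysosome, fell in all 6 compound comparisons, although the call for 25HC alone was lost without untreated mouse 3 or 25HC mouse 2 (adjusted p up to 0.0669). Its libraries held 10.6, 11.0 and 12.8 CPM with OSW-1 and LPS, 17.4, 18.2 and 25.8 with itraconazole and LPS and 21.5, 23.1 and 22.6 with 25HC and LPS, against 36.7, 32.2 and 36.5 in untreated cells with LPS. The log2 fold changes were -1.62 ± 0.12 (adjusted p = 2.35e-11), -0.78 ± 0.12 (adjusted p = 7.56e-06) and -0.65 ± 0.12 (adjusted p = 0.000137). Rab32, of lysosome-related organelles and defence against intracellular bacteria, rose instead, to 341, 375 and 399 CPM with itraconazole and LPS and 253, 297 and 311 with 25HC and LPS, against 199, 186 and 158 in untreated cells with LPS. These were gains of 1.04 ± 0.15 (adjusted p = 2.29e-06) and 0.67 ± 0.15 (adjusted p = 0.000733). For OSW-1 with LPS, at 197, 198 and 306 CPM, the value of 0.37 ± 0.15 (adjusted p = 0.0253) came to 0.13 (adjusted p = 0.397) without OSW-1 mouse 3, to 0.28 (adjusted p = 0.118) without untreated mouse 3, and to an adjusted p of 0.0897 when the compared groups were fitted alone. Rab38, the relative of Rab32, stayed under 2 CPM in every library, and its log2 fold changes with LPS, -1.05, -0.84 and -0.54 for 25HC, itraconazole and OSW-1, were not called. Without LPS the same differences were -1.86 ± 0.51 (adjusted p = 0.00855), -1.51 ± 0.50 (adjusted p = 0.0262) and -1.60 ± 0.50 (adjusted p = 0.014). The libraries then held 0.344, 0.281 and 0.286 CPM with 25HC, 0.237, 0.447 and 0.489 with itraconazole and 0.174, 0.488 and 0.448 with OSW-1, against 0.614, 0.782 and 1.98 in untreated cells. Untreated mouse 3 stood far above the other libraries. Without untreated mouse 3 the differences were -1.18, -0.83 and -0.92, and none was called (adjusted p = 0.122, 0.292 and 0.184). Rab3a, of regulated exocytosis, fell with OSW-1 in both states, by 1.34 with LPS and 0.80 without on the log2 scale (adjusted p = 2.33e-07 and 0.000647). Rab44, a large atypical Rab, had 0 reads with 25HC alone, against 12 in untreated cells, at least 4.93-fold lower.

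Rab19 fell in all 6 compound comparisons. It had 0.0401, 0.449 and 0.172 CPM with OSW-1 and LPS, 0.745, 1.03 and 1.49 with itraconazole and LPS and 1.40, 1.93 and 1.80 with 25HC and LPS, against 6.02, 7.62 and 6.75 in untreated cells with LPS. Without LPS the values were 2.96, 2.73 and 3.14 CPM with OSW-1, 5.65, 5.36 and 5.92 with itraconazole and 6.18, 5.51 and 6.46 with 25HC, against 14.4, 14.4 and 12.3 in untreated cells. No compound library overlapped its untreated group, and the log2 fold changes were -1.18 ± 0.20 (adjusted p = 0.000105) with 25HC alone, -1.28 (adjusted p = 5.45e-05) with itraconazole alone and -2.22 (adjusted p = 1.53e-08) with OSW-1 alone. With LPS they were -1.99 (adjusted p = 2.98e-07) with 25HC, -2.63 (adjusted p = 3.02e-09) with itraconazole and -4.91 ± 0.31 (adjusted p = 5.45e-13) with OSW-1. Rab23, a Rab of the primary cilium that restrains Hedgehog signalling, rose with every compound in LPS-stimulated cells, to 9.71, 9.39 and 9.77 CPM with OSW-1, 7.52, 9.07 and 7.49 with itraconazole and 4.40, 7.19 and 6.06 with 25HC, against 2.40, 3.84 and 3.83 in untreated cells. Its log2 fold changes were 1.52 ± 0.21 (adjusted p = 3.66e-07), 1.26 ± 0.20 (adjusted p = 1.55e-05) and 0.81 ± 0.21 (adjusted p = 0.00275). Rab42 was under 1.5 CPM throughout and fell with OSW-1 and with itraconazole in LPS-stimulated cells, at -2.80 ± 0.54 (adjusted p = 5.16e-05) and -1.62 ± 0.46 (adjusted p = 0.00429). Rab28, a ciliary Rab, was called in 1 of the 6 comparisons, OSW-1 with LPS, at -0.25 ± 0.08 (adjusted p = 0.00947), or 0.0599 without OSW-1 mouse 1.

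**Figure D4:**
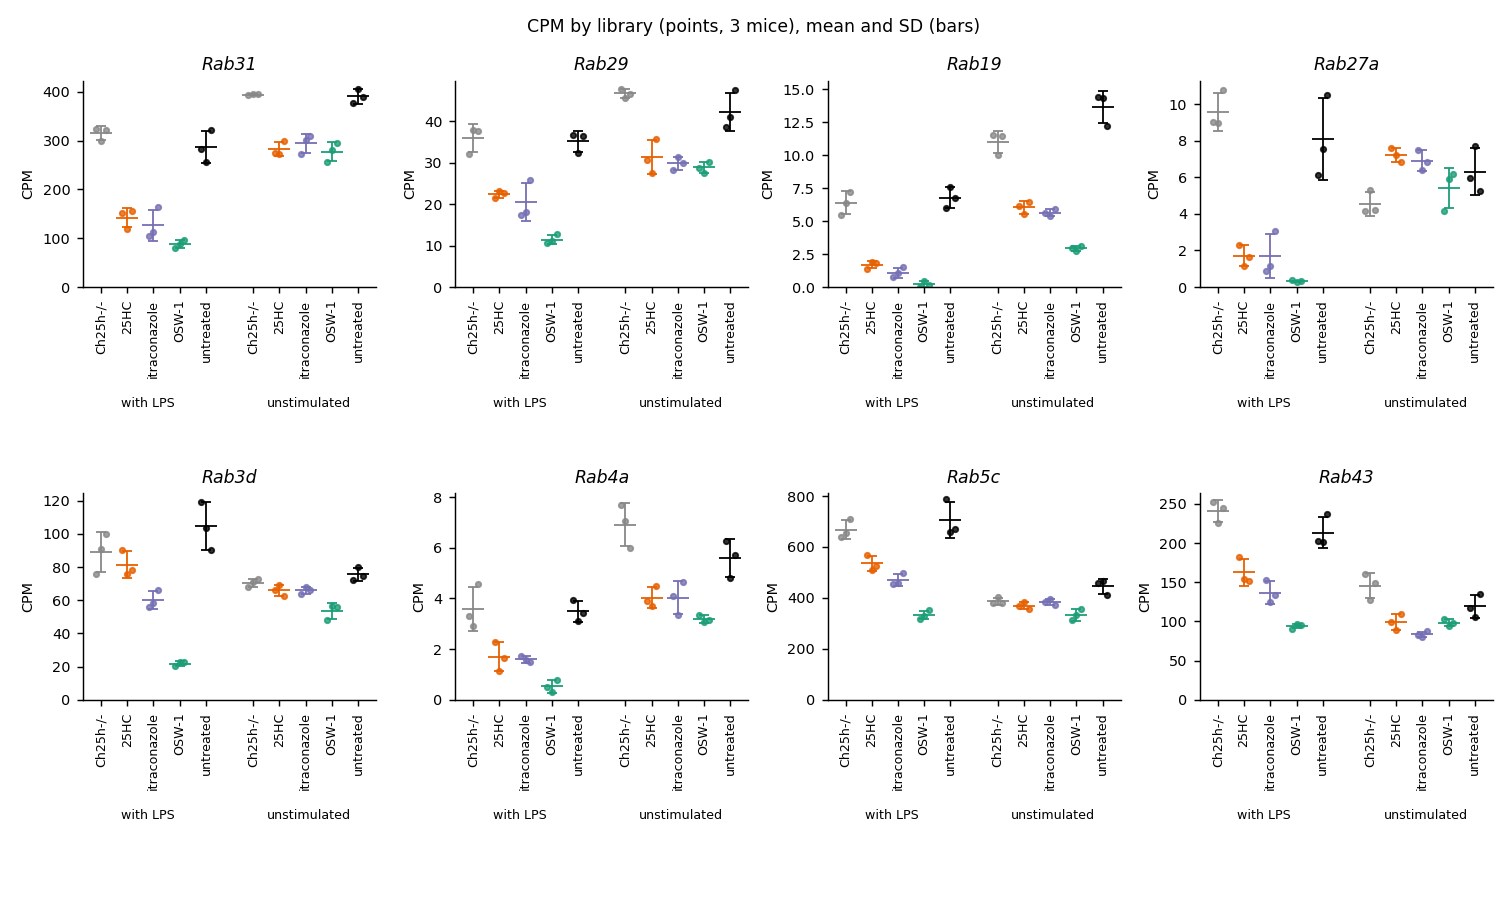
CPM of 8 Rab genes in each of the 30 libraries (points), with group means (horizontal bars) and SDs (error bars, n = 3), LPS-stimulated groups on the left of each panel and unstimulated groups on the right. With LPS the OSW-1 libraries are the lowest of the 5 groups in each panel, and Rab27a is low with the compounds in the LPS side of its panel.

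LPS raised 20 and lowered 11 of the 52 members in wild-type cells, against 30.8% and 30.1% of all genes, and raised 18 and lowered 10 in Ch25h-/- cells, against 28% and 29.2%. In wild-type cells Rab20 rose most, to 94.2, 88.6 and 62.3 CPM with LPS, against 11.8, 12.8 and 17.3 in unstimulated wild-type cells, 2.55 ± 0.16 (adjusted p = 1.39e-12). In Ch25h-/- cells it had 62.8, 72.5 and 70.4 CPM with LPS, against 16.0, 13.4 and 15.2 without, 2.21 ± 0.16 (adjusted p = 2.36e-11). Rab37 followed at a low level, with 2.83, 2.40 and 1.09 CPM with LPS, against 1.13, 0.677 and 0.681 in unstimulated wild-type cells. The lowest LPS library lay below the highest unstimulated one, and the difference was 1.33 ± 0.39 (adjusted p = 0.00462). Rab32 and Rab10 rose in wild-type cells by 1.26 ± 0.15 (adjusted p = 6.09e-08) and 1.08 ± 0.10 (adjusted p = 1.16e-09), and in Ch25h-/- cells by 1.15 ± 0.15 (adjusted p = 3.45e-07) and 0.86 ± 0.10 (adjusted p = 6.17e-08). Rab43, Rab12 and Rab6a also rose in wild-type cells, by 0.84 ± 0.10, 0.76 ± 0.11 and 0.71 ± 0.08 (adjusted p = 1.28e-07, 2.99e-06 and 4.9e-08). Rab11b fell to 51.3, 54.9 and 62.8 CPM with LPS, against 86.6, 84.2 and 89.6 in unstimulated wild-type cells, -0.62 ± 0.07 (adjusted p = 2.37e-08). Rab19 and Rab4a fell as well, by 1.01 and 0.68 on the log2 scale (adjusted p = 0.000124 and 0.00876). In Ch25h-/- cells Rab5c, Rab43 and Rab6a rose by 0.79, 0.73 and 0.67 (adjusted p = 4.9e-09, 1.46e-06 and 1.31e-07). In the same cells Rab4a, Rab19, Rab9, Rab40c and Rab11b fell by 0.95, 0.78, 0.77, 0.71 and 0.55 on the log2 scale (adjusted p = 0.000771, 0.00218, 0.000266, 0.000164 and 1.96e-07). Rab38 had 0.270, 0.211 and 0.395 CPM with LPS, against 1.70, 0.892 and 1.84 in unstimulated Ch25h-/- cells, -2.32 (adjusted p = 0.000827). Rab27a, low with the compounds and LPS, had 1.07 ± 0.29 (adjusted p = 0.0026) in Ch25h-/- cells and 0.35 ± 0.28 (adjusted p = 0.276) in wild-type cells, and the difference between these was not called (adjusted p = 0.492). Rab40b, which joins a ubiquitin ligase, had 0 reads with LPS, against 24 in unstimulated wild-type cells, at least 6.99-fold lower, and 0 with LPS against 27 in unstimulated Ch25h-/- cells, at least 7.58-fold lower. Rab1 had a log2 fold change of 0.17 in wild-type cells (adjusted p = 0.0509), with an adjusted p of 0.0222 when mouse was a block.

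No member was called between Ch25h-/- and wild-type cells, unstimulated or with LPS, by edgeR, where 0.00759% and 0.228% of all genes were, and none for the difference in LPS response (0% of all genes). At an unadjusted p under 0.05 there were 6, 11 and 3 members, and DESeq2 called 1, 0 and 0. The count with LPS rested on 1 library: without untreated wild-type mouse 3, 12 members were called, 10 lower and 2 higher in Ch25h-/- cells. Among them, Rab10 had 255, 276 and 300.3 CPM in Ch25h-/- cells, against 415, 335 and 263 in wild-type cells, a log2 fold change of -0.29 ± 0.10 (adjusted p = 0.165) with all libraries and -0.44 (adjusted p = 0.001) without that mouse. Rab32, Rab8a, Rab14 and Rab5a came to -0.55, -0.38, -0.26 and -0.23 without it (adjusted p = 0.018, 0.00255, 0.00868 and 0.0344). For the difference in LPS response, 4 members were called without that library, among them Rab8a and Rab10. The shares of all genes above come from the fit with all libraries. Those without that library are not given here, so the counts of 12 and 4 have no background beside them. In unstimulated cells the smallest adjusted p was that of Rab2b, 0.44 ± 0.09 (adjusted p = 0.0919).

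Whether a compound's effect differed with LPS was tested directly, as its effect with LPS minus that without. For OSW-1 this difference crosses the split of even and odd counts, from which it cannot be told apart. For every compound, time in culture may also differ between the states, as said above. The effect differed for 4 members with 25HC, 13 with itraconazole and 32 with OSW-1, against 12.3%, 26.3% and 51.7% of all genes. Rab32 was raised by 25HC and itraconazole in the presence of LPS: the difference of effects was 0.86 ± 0.21 (adjusted p = 0.00846) for 25HC and 1.13 ± 0.21 (adjusted p = 0.000324) for itraconazole, where the effects without LPS were -0.19 and -0.09 and not called. For Rab33b the difference was 0.63 ± 0.12 (adjusted p = 0.000419) with itraconazole and 0.87 ± 0.12 (adjusted p = 1.31e-06) with OSW-1, and for Rab2a 0.38 ± 0.09 (adjusted p = 0.00229) and 0.51 ± 0.09 (adjusted p = 2.3e-05). Rab5a and Rab5c parted further with LPS, by 0.42 ± 0.10 (adjusted p = 0.00102) and -0.66 ± 0.11 (adjusted p = 2.3e-05) with OSW-1. The effect of OSW-1 on Rab3d was -2.26 with LPS and -0.50 without, a difference of -1.76 ± 0.14 (adjusted p = 6.77e-10).

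**Figure D5:**
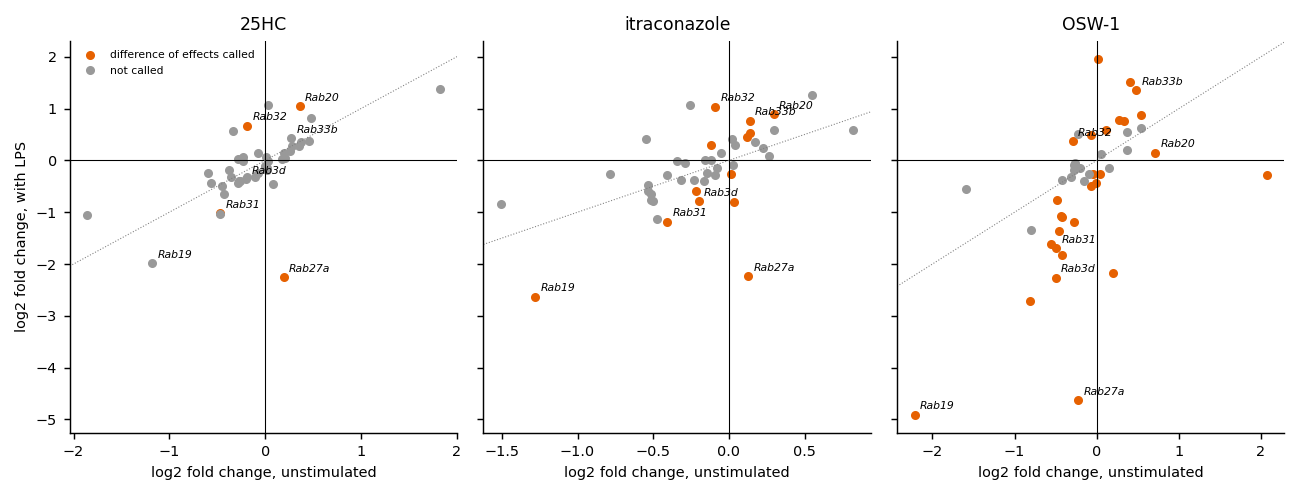
Log2 fold change of Rab genes with LPS (vertical) against that without LPS (horizontal) for 25HC, itraconazole and OSW-1, for members with a mean of at least 1 CPM in 1 of the 4 groups, leaving out Rab37 and Rab39b, with the dotted line at equal effects. Orange points are members whose 2 effects differed at an adjusted p under 0.05, and Rab27a lies near 0 without LPS and between -2.24 and -4.63 with it.

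Set against each other, the compounds at these unequal doses gave few called differences without LPS. No member was called between 25HC and itraconazole (4 at an unadjusted p under 0.05 and 0.235% of all genes called, with 0 members by DESeq2), 2 between OSW-1 and 25HC (2.83% of all genes) and 3 between OSW-1 and itraconazole (6.33%). Rab19 was lower with OSW-1 in both, at -1.04 ± 0.21 (adjusted p = 0.0103) against 25HC and -0.94 ± 0.21 (adjusted p = 0.00855) against itraconazole. The first of these was lost without OSW-1 mouse 2 (adjusted p = 0.0518) and the second without OSW-1 mouse 1 (adjusted p = 0.0538). With LPS, 5 members were called between 25HC and itraconazole (6.54% of all genes), 29 between OSW-1 and 25HC (58.7%) and 30 between OSW-1 and itraconazole (48.6%). The comparisons of OSW-1 with LPS cross the split of even and odd counts, from which the compound cannot be told apart. Without 25HC mouse 1 or itraconazole mouse 2 the count of 5 came to 0, and without itraconazole mouse 3 to 9. Beside the genes above, Rab3d was lower with OSW-1 than with 25HC and itraconazole, at -1.91 ± 0.11 (adjusted p = 4.03e-13) and -1.47 ± 0.10 (adjusted p = 5.1e-11), and so was Rab4a, at -1.67 ± 0.28 (adjusted p = 1.92e-05) and -1.58 ± 0.28 (adjusted p = 6.53e-05). Rab27a, Rab19 and Rab39 were lower with OSW-1 too, at -2.38, -2.92 and -1.71 against 25HC (adjusted p = 3.6e-05, 6.52e-08 and 1.47e-06). Against itraconazole they stood at -2.39, -2.28 and -1.37 (adjusted p = 5.26e-05, 1.02e-05 and 5.29e-05). Rab34 differed by -1.38 (adjusted p = 4.42e-08) from 25HC and by -1.06 (adjusted p = 4.53e-06) from itraconazole, and Rab23 by 0.71 (adjusted p = 0.00352) from 25HC. Rab37, with 2 reads with OSW-1 and LPS, had 80 with 25HC and 38 with itraconazole. These are ratios of 64.7 and 30.1 in favour of those compounds with counting intervals of 17.3 to 544 and 7.77 to 257. Rab39b, with 404 reads with OSW-1 and LPS, had 17 with itraconazole and LPS, a log2 fold change of 3.88 (adjusted p = 0.000157).

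The genes that load, switch and read Rabs were taken as 5 lists, chosen with earlier results of these data known. Beside their counts, 34.3% of all tested genes rose and 37.1% fell with OSW-1 and LPS, 26.5% and 27.9% with itraconazole and LPS, and 20.8% and 21% with 25HC and LPS. Of 8 genes of the core cycle, 4 rose and 2 fell with OSW-1 and LPS, where the list's median log2 fold change was 0.30 and that of all genes -0.06. With itraconazole and LPS 2 rose and 2 fell, and with 25HC and LPS 2 rose and 1 fell. Rabif, a chaperone for Rabs without a nucleotide, averaged 75.5 CPM with OSW-1 and LPS, 60.9 with itraconazole and LPS and 49.8 with 25HC and LPS, against 36.5 in untreated cells with LPS. Its log2 fold changes were 1.05 ± 0.07 (adjusted p = 3.49e-12), 0.74 ± 0.07 (adjusted p = 1.22e-08) and 0.45 ± 0.07 (adjusted p = 3.13e-05). Of 50 exchange factors, 19 rose and 23 fell with OSW-1 and LPS, 12 and 19 with itraconazole and LPS, and 10 and 11 with 25HC and LPS, with median log2 fold changes of -0.21, -0.08 and -0.07, against -0.06, -0.03 and -0.01 over all genes. Trappc4, a subunit of the complex that activates Rab1, rose in all 6 compound comparisons, from 0.82 ± 0.08 (adjusted p = 2.8e-07) with itraconazole alone to 1.65 ± 0.09 (adjusted p = 2.4e-14) with OSW-1 and LPS. Dennd4a, an activator of Rab10, rose with OSW-1 and LPS by 1.87 ± 0.12 (adjusted p = 5.3e-13). Trappc9, a subunit of a related complex, fell by 0.98 ± 0.08 (adjusted p = 2.92e-11) with OSW-1 and LPS, and Trappc1 by 0.73 ± 0.11 (adjusted p = 3.25e-06) with itraconazole and LPS, on the log2 scale. Rab3il1, an exchange factor for Rab8 that is named after its values were seen, averaged 4.68 CPM with OSW-1 and LPS, 34.7 with itraconazole and LPS and 38.4 with 25HC and LPS, against 202 in untreated cells with LPS. Its log2 fold changes were -5.43 (adjusted p = 3.01e-10), -2.54 (adjusted p = 1.33e-05) and -2.40 (adjusted p = 5.41e-05).

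Of 36 tested GTPase-activating proteins, 9 rose and 16 fell with OSW-1 and LPS, 11 and 13 with itraconazole and LPS, and 8 and 10 with 25HC and LPS, with medians of -0.10, -0.07 and 0.01. For this list and those below, 34.3% of all genes rose and 37.1% fell with OSW-1 and LPS. The shares were 26.5% and 27.9% with itraconazole and LPS, and 20.8% and 21% with 25HC and LPS. The medians of all genes were -0.06, -0.03 and -0.01. Tbc1d13, which acts on Rab35, fell by 1.32 ± 0.07 (adjusted p = 4.89e-14) and Tbc1d14, an autophagy regulator that binds Rab11, by 1.47 ± 0.11 (adjusted p = 8.23e-12) on the log2 scale with OSW-1 and LPS. Tbc1d23, a trans-Golgi protein with the domain of these enzymes, rose with OSW-1 and LPS by 1.40 ± 0.08 (adjusted p = 7.35e-14), and Tbc1d17 with itraconazole and LPS by 1.06 ± 0.11 (adjusted p = 4.09e-08). Among 39 tested effectors, 13 rose and 13 fell with OSW-1 and LPS, 9 and 10 with itraconazole and LPS, and 10 and 7 with 25HC and LPS, with medians of -0.12, 0.08 and 0.12. Rab11fip1, an effector of Rab11, averaged 529 CPM with OSW-1 and LPS, 324 with itraconazole and LPS and 212 with 25HC and LPS, against 41.2 in untreated cells with LPS. Its log2 fold changes were 3.68 ± 0.18 (adjusted p = 1.3e-14), 2.98 ± 0.18 (adjusted p = 1.13e-11) and 2.36 ± 0.17 (adjusted p = 7.9e-10). Golga2, the Golgi matrix protein that binds Rab1, rose by 1.26 ± 0.09 (adjusted p = 3.81e-12), 0.91 ± 0.09 (adjusted p = 8.73e-09) and 0.66 ± 0.09 (adjusted p = 2.18e-06) with the compounds in that order. Appl1, a Rab5 effector, rose by 1.86 ± 0.09 (adjusted p = 5.81e-15) with OSW-1 and LPS, to an average of 192 CPM, against 52.9 in untreated cells with LPS. Of the 5 genes that add or remove phosphate on Rabs, 4 fell with OSW-1 and LPS and none rose, while 4 fell and 1 rose with itraconazole and LPS and 2 fell and 1 rose with 25HC and LPS. Ppm1h, a phosphatase of Rab8a and Rab10, fell by 1.09 ± 0.09 (adjusted p = 1.3e-10) on the log2 scale with OSW-1, 0.76 ± 0.09 (adjusted p = 2.52e-07) with itraconazole and 0.69 ± 0.09 (adjusted p = 3.06e-06) with 25HC. Lrrk2, the kinase of the same Rabs, differed between compounds. It averaged 8.61 CPM with OSW-1, 25.8 with itraconazole and 20.4 with 25HC, against 14.2 in untreated cells, all with LPS. It fell by 0.72 ± 0.13 (adjusted p = 2.32e-05) on the log2 scale with OSW-1, and rose by 0.86 ± 0.13 (adjusted p = 3.81e-06) with itraconazole and 0.52 ± 0.13 (adjusted p = 0.00176) with 25HC. Ppm1m and Lrrk1 fell by 2.14 and 1.72 with OSW-1 and LPS (adjusted p = 1.38e-11 and 2.13e-10).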

How the data were processed

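Counts per gene were deposited by the authors as 1 table of raw counts for 30538 genes in 30 polyA libraries, 3 mice in each of 10 groups. Per the submitters' processing notes, FastQC 0.11.9, GSNAP, featureCounts of Subread 1.5.2, edgeR 3.26.8 and build GRCm38 were used. The aligner's settings and the strand setting are not given in the sources used here. Counts that are all even in 20 libraries were read as 2 counts per read where reads are quoted, with 3 reads over the group as the floor behind a lower bound, and floors and counting intervals cover counting error only.

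One edgeR 4.0.16 quasi-likelihood model (R 4.3.3, TMM scaling, filterByExpr with a minimum count of 10) covered all 10 groups and 20 comparisons. Benjamini-Hochberg adjustment ran over the 13173 genes tested, SEs were derived from the F statistic, and CPM used TMM-scaled totals, whose unscaled values were 23656860 to 43922154. RPKM used exon lengths of the annotation. Code was tested on simulated data. Alternatives were DESeq2 1.42.0, limma-voom (limma 3.58.1), other size factors, no filter, halved even counts, the compared groups alone, mouse as a block and each library left out.

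The labels give a mouse's libraries the same number, so the pairing comes from the labels. Deviations from group means correlated at a median of 0.0865 over 84 same-mouse pairs in wild-type cells (36 over 0.1) and 0.0906 over 3 pairs in Ch25h-/- cells (1 over 0.1).

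The Rab genes, the lists of partner genes and the tests were chosen with earlier results of these data known. The rule for members given with values in each comparison took those past the threshold, also with each library left out, with at least 1 CPM and an absolute log2 fold change of at least 0.5, up to 6 in each direction, together with a fixed set. Any other member could be named as well, and not every value the rule takes is printed per library. Up to 3 genes of each partner list with the smallest p in a comparison could be named. Rab7b and the proteins' sequences were not analysed here.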

Additional observations from a re-analysis of the deposited data

Results flagged for a closer look

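The effects of the compounds differed between LPS-stimulated and unstimulated cells for some Rab genes, by edgeR's quasi-likelihood test of the effect with LPS minus the effect without (Benjamini-Hochberg adjustment across the whole table). The effect differed for 4 members with 25HC, 13 with itraconazole and 32 with OSW-1, against 12.3%, 26.3% and 51.7% of all genes. The members listed here kept that call when any 1 library was left out. The differences for OSW-1 cross the split of even and odd counts, from which they cannot be told apart. For every compound, time in culture may also differ between the states.

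With 25HC the differences on the log2 scale were -2.45 for Rab27a and 0.86 for Rab32. With itraconazole they were -2.37 for Rab27a, -1.35 for Rab19, -0.77 for Rab31, -0.59 for Rab3d and -0.37 for Rab5c on the lower side. On the higher side they were 0.33 for Rab5a, 0.38 for Rab2a, 0.63 for Rab33b and 1.13 for Rab32.

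With OSW-1 the lower differences were -5.66 for Rab37, -4.41 for Rab27a, -2.69 for Rab19, -2.36 for Rab39, -1.90 for Rab4a, -1.76 for Rab3d, -1.20 for Rab31 and -0.66 for Rab5c. The higher ones were 0.42 for Rab5a, 0.51 for Rab2a, 0.56 for Rab11b, 0.87 for Rab33b and 1.11 for Rab23. The value for Rab37 rests on 2 reads in the OSW-1 libraries with LPS, and was -8.59 without mouse 2 of them.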

How the results depend on the processing

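No called difference changed direction under any alternative. Of 337 called differences of single members, 333 stayed called with DESeq2, 333 with limma-voom, 334 with the replicate block, 330 with DESeq2 size factors, 326 with even counts halved, 303 without the low-count filter and 264 with the compared groups alone. Fitting the compared groups alone, with fewer samples, gave 14 members for 25HC with LPS, 22 for itraconazole with LPS, 18 for LPS in wild-type cells and 2 for the difference of 25HC effects, and for the pairs of compounds 1 (OSW-1 against 25HC, unstimulated), 8 (OSW-1 against itraconazole, unstimulated) and 0 (25HC against itraconazole, LPS). DESeq2 gave 1 for Ch25h-/- against wild type, unstimulated, and 6 for OSW-1 against itraconazole, unstimulated. limma-voom gave 4 and 8 for OSW-1 against 25HC and itraconazole, unstimulated. Without the filter, OSW-1 against 25HC, unstimulated, gave 1 and 25HC against itraconazole with LPS gave 3. The cause of these shifts was not tested.

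Leaving out 1 library at a time gave 10 to 14 members for unstimulated itraconazole, 0 to 1 for Ch25h-/- against wild type, unstimulated, and 0 to 12 with LPS (12 without untreated mouse 3), 0 to 4 for their LPS responses, 2 to 7 for the difference of 25HC effects, and for pairs of compounds 0 to 2 (OSW-1 against 25HC, unstimulated), 0 to 3 (OSW-1 against itraconazole, unstimulated) and 0 to 9 (25HC against itraconazole, LPS).

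With mouse as a replicate block, 23, 17 and 28 members were called for 25HC, itraconazole and OSW-1 without LPS, 24, 35 and 39 with LPS, and 34 for LPS in wild-type cells. Among named members the block ended 3 calls, Rab33a for itraconazole with LPS (adjusted p = 0.0552) and Rab11a for OSW-1 with LPS against untreated cells (0.0519) and against itraconazole (0.051). Within a state, Ch25h-/- and wild-type cells share no mouse, so a block of mouse could not be fitted there. The blocked fit called 0 members for the difference in LPS response, and limma-voom with mouse as a random effect called 0 for the genotypes in either state and for that difference. Members under 1 CPM rest on few reads, and an absence of calls there says little.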
